A study of Mus musculus with 6 samples.

Results

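The Notch pathway was followed in differentiated mouse inguinal fat cells through 10 genes, which are the 4 receptors Notch1, Notch2, Notch3 and Notch4, the ligands Jag1 and Jag2, the nuclear factor Rbpj and the target genes Hes1, Hey1 and Heyl. They are 10 of the 18193 genes that a probe set of the array names alone, and every probe set annotated to 1 of them was taken, 22 of 45101. The cells came from inguinal fat, a white fat depot under the skin, and had been differentiated in culture. The 3 samples labelled Control were taken to have had no drug, and the 3 samples labelled Rosiglitazone had 1 uM rosiglitazone for 4 d. Rosiglitazone activates PPARγ, the nuclear receptor that drives fat cell differentiation, and the labels give beiging, a shift of white fat cells toward heat production, as its effect here. Groups were taken from the sample titles, because the treatment text of the labels names the drug for all 6 samples. Strain, sex and age are not given in the sources used here, and nothing says that the 3 samples of a group were separate cultures, so the spread behind the p-values may be technical. The questions were which Notch genes differed in level with the drug and whether receptors, ligands and targets moved the same way.

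Notch receptors are membrane proteins that are activated by ligands on a neighbouring cell. Ligand binding exposes the receptor to cleavage first by ADAM proteases and then by the gamma-secretase complex, and the freed intracellular domain enters the nucleus, binds RBPJ and turns on genes of the HES and HEY families, which encode repressors. In mouse fat, loss of Notch1 or Rbpj in adipocytes has been reported to raise beige features, and Hes1 has been reported to repress Prdm16 and Ppargc1a, which drive them. Notch3 is best known from mural cells of blood vessels and Notch4 from endothelial cells.

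The stretches of 250 bases before the transcription start are shown for the receptor, ligand and nuclear factor genes with the clearest changes, so that the start regions of genes that fell can be read beside that of Notch3, which rose. They are from RefSeq (build GRCm38.p6), whose table held 7 of the 10 members, and run 5′ to 3′ on the gene's strand. Capitals mark the RBPJ core TGGGAA or its reverse complement TTCCCA, and the GC box GGGCGG or its reverse complement CCGCCC, both searched as exact letters on both strands. The positions are chr2:26503823-26504072 on the minus strand for Notch1, chr3:98013288-98013537 on the plus strand for Notch2, chr17:32166891-32167140 on the minus strand for Notch3, chr2:137116521-137116770 on the minus strand for Jag1 and chr5:53590096-53590345 on the plus strand for the more upstream start of Rbpj.
Notch1: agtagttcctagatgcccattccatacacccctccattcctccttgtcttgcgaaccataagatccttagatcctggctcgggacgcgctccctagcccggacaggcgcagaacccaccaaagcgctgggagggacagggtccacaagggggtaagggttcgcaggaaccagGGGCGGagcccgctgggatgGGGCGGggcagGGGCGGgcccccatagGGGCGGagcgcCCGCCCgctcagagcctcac
Notch2: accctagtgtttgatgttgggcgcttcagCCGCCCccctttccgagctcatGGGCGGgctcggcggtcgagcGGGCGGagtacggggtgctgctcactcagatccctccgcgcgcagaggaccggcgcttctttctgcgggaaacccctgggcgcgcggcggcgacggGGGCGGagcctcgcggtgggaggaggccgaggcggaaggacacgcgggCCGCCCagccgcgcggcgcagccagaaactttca
Notch3: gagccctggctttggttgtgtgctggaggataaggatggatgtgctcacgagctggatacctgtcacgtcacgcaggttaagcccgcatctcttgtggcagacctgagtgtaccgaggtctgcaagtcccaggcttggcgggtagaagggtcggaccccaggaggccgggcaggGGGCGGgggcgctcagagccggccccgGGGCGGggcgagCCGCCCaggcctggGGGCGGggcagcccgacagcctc
Jag1: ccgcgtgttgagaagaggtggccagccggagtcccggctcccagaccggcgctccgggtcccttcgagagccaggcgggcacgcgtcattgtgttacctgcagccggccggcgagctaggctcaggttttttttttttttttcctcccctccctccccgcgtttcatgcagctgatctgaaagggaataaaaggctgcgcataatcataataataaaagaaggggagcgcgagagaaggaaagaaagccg
Rbpj: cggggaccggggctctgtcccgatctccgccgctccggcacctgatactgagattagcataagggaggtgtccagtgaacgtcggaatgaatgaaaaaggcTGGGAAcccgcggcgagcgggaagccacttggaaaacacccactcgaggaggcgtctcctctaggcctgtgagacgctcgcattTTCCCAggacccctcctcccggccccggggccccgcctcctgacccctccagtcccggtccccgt
The RBPJ core was found in the window of Rbpj alone among the 7 genes, as TGGGAA ending at base −144 and as TTCCCA ending at base −60 from the start. Of all 32851 promoter windows of this length, 21.6% held that core. The GC box was found in the windows of Notch1, Notch2, Notch3 and Jag2, and in 32.7% of all windows. Notch1 and Notch2, which fell, had 5 matches each. Notch3, which rose, had 4, and the window of Notch4 had none. Jag1 and Rbpj, which also fell, had none, and Jag2, which was not called, had 5, so the matches did not follow the direction of change. These matches describe letters in a window and were not measured as binding.

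The 2 receptor genes Notch1 and Notch2, the ligand gene Jag1 and the nuclear factor gene Rbpj fell with rosiglitazone, by 1.59- to 2.33-fold at the brightest probe set of each. Notch3 rose by 1.80-fold in the same arrays. Notch4, a dim signal, rose by 1.39-fold in a call close to the threshold. Hes1 fell by 1.24-fold on the deposited scale, in a call that depended on how the arrays were scaled. Jag2 and Heyl did not pass the test, and Hey1 was too dim to be tested.

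Intensities under 16 were set to 16 before log2, and a probe set was called at an adjusted p under 0.05 (limma, Benjamini-Hochberg over 27022 probe sets). Of the 22 member probe sets, 15 from 9 genes passed the filter on low values, a mean intensity of 27.3 over the 6 arrays. Of these 15, 9 were called lower, where 30.7% of all tested probe sets were, and 2 were called higher, where 21.2% were. The 3 arrays of a group lay wholly to 1 side of the other group for 11 of the 15, and for 58.3% of all tested probe sets. The median log2 change was −0.53 over the 15 and −0.04 over all probe sets tested. Other scalings of the arrays shifted the median change of all probe sets upward, by 0.07 with quantile normalization and by 0.12 with median centring. All calls split into 5721 higher and 8294 lower on the deposited scale. Quantile-normalized arrays gave 7399 higher (27.4% of those tested) and 6733 lower (24.9%), and centred arrays gave 8706 (32.2%) and 5697 (21.1%). The member calls were 2 higher and 8 lower under both of these scalings, Hes1 being the call lost. Changes are given on the deposited scale.

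**Figure D1:**
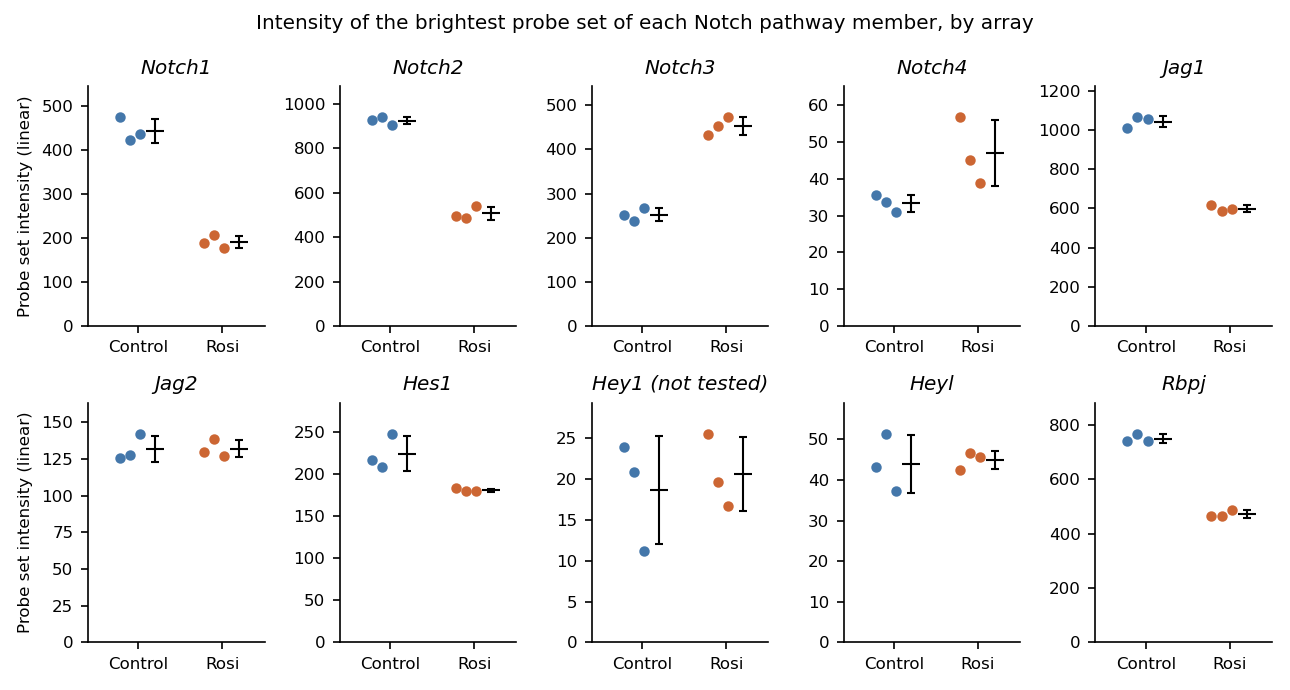
Probe set intensity on a linear scale (vertical axis, from 0) of the brightest probe set of each of the 10 members, with 1 point per array for 3 control and 3 rosiglitazone (Rosi) arrays and the mean ± SD in black. Notch1, Notch2, Jag1, Hes1 and Rbpj were lower on all 3 rosiglitazone arrays than on any control array, Notch3 and Notch4 were higher, and the groups overlapped for Jag2, Hey1 and Heyl.

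Notch1, a receptor of many tissues, had the largest fall among the members. Its brighter probe set (1418634_at) read 474, 422 and 436 on control arrays 1 to 3 and 189, 206 and 177 on rosiglitazone arrays 1 to 3. Every treated array was thus far below the lowest control, and the means were 444 ± 27.2 and 191 ± 14.2 (SD, n = 3 each). The log2 change was −1.22 (SE 0.07, 95% CI −1.37 to −1.07, limma adjusted p = 7.8e-10), and 2.12% of all tested probe sets had a log2 change as low. The other probe set (1418633_at) read 145, 147 and 173 in controls and 67.2, 65.5 and 74.6 with the drug. It gave nearly the same change, −1.16 (SE 0.11, limma adjusted p = 1.7e-07), so the 2 probe sets of Notch1 differed by less than their errors.

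Notch2, the receptor most like Notch1 in domain layout, fell at its bright probe set (1455556_at). The values were 929, 940 and 906 in controls and 495, 487 and 541 with rosiglitazone, with no overlap. Its log2 change was −0.87 (SE 0.05, 95% CI −0.97 to −0.76, limma adjusted p = 6.3e-10). The second probe set of Notch2 (1451889_at) was under 16 on all 6 arrays, between 5.83 and 15.9, and carried no measurable level.

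Notch3 went the other way. The probe set 1421965_s_at read 250, 239 and 267 in controls and 433, 452 and 473 with rosiglitazone, so every treated array exceeded every control. This was a log2 change of 0.85 (SE 0.06, 95% CI 0.71 to 0.98, limma adjusted p = 1.3e-08), which 2.10% of tested probe sets matched or exceeded. The second probe set (1421964_at) was dim and did not show this rise. It read 23.3, 24.2 and 23.7 in controls and 4.37, 5.62 and 23.4 with the drug, and its mean of 17.4 was under the filter, so it was not tested. The rise of Notch3 therefore rests on 1 probe set.

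The opposite changes of the receptors can be read within each array, where no scaling between arrays enters. The log2 ratio of Notch3 to Notch1 lay between −0.92 and −0.71 on the control arrays and between 1.14 and 1.41 on the treated arrays, a difference in change of 2.06 (SE 0.10). For Notch3 against Notch2 the difference in change was 1.71 (SE 0.07). Notch1 fell further than Notch2, by a difference of −0.35 (SE 0.12), with within-array ratios of −1.16 to −0.97 in controls and −1.61 to −1.24 with the drug. Altogether 6 such pairs of members were compared, chosen after their values were seen, and each had a two-sided exact permutation p of 0.1 (0.1 adjusted over the 6), the smallest that 3 against 3 arrays can give.

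Notch4 was near the lower limit of measurement. Its brightest probe set (1449146_at) read 35.5, 33.6 and 30.9 in controls and 56.7, 45.2 and 38.9 with rosiglitazone, without overlap but with a wide spread among treated arrays. The resulting log2 change was 0.48 (SE 0.19, 95% CI 0.08 to 0.88, limma adjusted p = 0.0434). The call was lost when any of control arrays 1, 2 and 3 or rosiglitazone array 1 or 2 was left out (log2 change 0.53, 0.49, 0.42, 0.33 and 0.50), and the adjusted p lay between 0.0127 and 1 over 19 alternatives. The highest came from a test against a 1.5-fold change (limma treat), and the next was 0.189 (limma), without rosiglitazone array 1. The other 2 probe sets, 1456263_at and 1436901_at, had means of 26.5 and 24.1, just under the filter, and their groups overlapped.

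**Figure D2:**
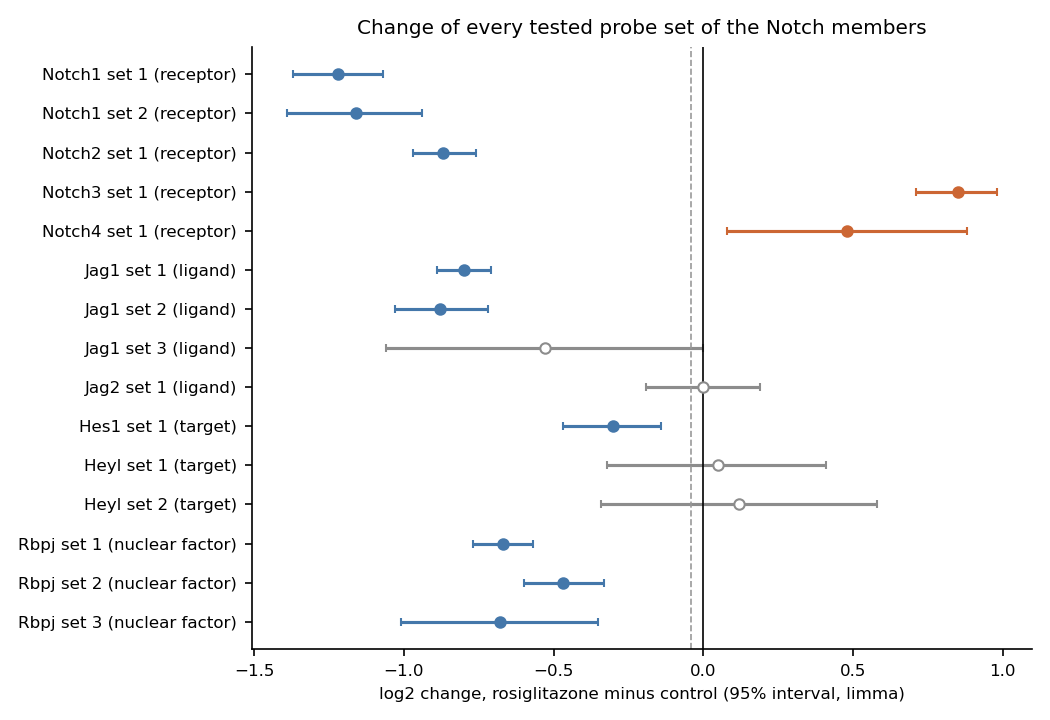
The log2 change of each of the 15 tested member probe sets, rosiglitazone minus control (horizontal axis), with the 95% interval from limma; filled points passed an adjusted p of 0.05, and the dashed line is the median of all tested probe sets. The 2 Notch1 probe sets lie lowest at −1.22 and −1.16, Notch3 lies highest at 0.85, and the probe sets of Jag2 and Heyl lie around 0.

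Of the ligands, Jag1, which encodes Jagged1, fell at both of its bright probe sets. The brightest (1434070_at) read 1009, 1064 and 1054 in controls and 617, 584 and 596 with rosiglitazone, with no overlap and little spread in either group. It changed by −0.80 on the log2 scale (SE 0.04, 95% CI −0.89 to −0.71, limma adjusted p = 4.0e-10). The second (1421106_at) read 411, 443 and 475 against 261, 245 and 219, a log2 change of −0.88 (SE 0.07, limma adjusted p = 6.5e-08). The third, dim probe set (1421105_at) read 42.5, 34.6 and 35.3 against 25.6, 36.6 and 18.5, and the groups overlapped. Its log2 change of −0.53 (SE 0.25, limma adjusted p = 0.0907) did not pass the test.

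Jag2, which encodes the other Jagged ligand, gave no sign of this fall. Its measurable probe set (1426430_at) read 126, 128 and 142 in controls and 130, 139 and 127 with rosiglitazone, fully overlapping. The log2 change was 0.00, with a 95% CI of −0.19 to 0.19 (limma adjusted p = 0.984), so a fall as large as that of Jag1 lies outside the interval. Within arrays, the change of Jag2 exceeded that of Jag1 by 0.80 (SE 0.07). The second probe set of Jag2 (1426431_at) read between 4.61 and 18.5 and was not tested.

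Rbpj encodes the DNA-binding protein through which all 4 receptors act, and it fell at all 3 of its probe sets. The brightest (1454896_at) read 740, 767 and 740 in controls and 464, 464 and 487 with rosiglitazone. All treated arrays were below all controls, with a log2 change of −0.67 (SE 0.05, 95% CI −0.77 to −0.57, limma adjusted p = 6.8e-09). The second (1448957_at) read 362, 378 and 344 against 261, 273 and 250, a log2 change of −0.47 (SE 0.06, limma adjusted p = 1.2e-05). The third (1418114_at) read 73.4, 73.8 and 68.0 against 47.2, 52.0 and 36.5, a log2 change of −0.68 (SE 0.15, limma adjusted p = 0.0016). Among the 7 members with a promoter window, Rbpj is also the one whose stretch, shown above, held the core motif of its own protein. That core was in 21.6% of all promoter windows, and a link to the fall was not tested. Notch1 fell further than Rbpj within arrays, the change of Rbpj being 0.55 higher (SE 0.10).

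Among the targets, Hes1, which encodes the repressor most widely used as a Notch readout, has 1 probe set (1418102_at). It read 216, 208 and 248 in controls and 183, 180 and 180 with rosiglitazone, so the treated arrays were below every control and close to each other. The log2 change was −0.30 (SE 0.08, 95% CI −0.47 to −0.14, limma adjusted p = 0.0038), but 23.6% of all tested probe sets had a change as low. With quantile-normalized and with centred arrays it was −0.18 both times and not called (limma adjusted p = 0.0712 and 0.061). Over 21 alternatives the adjusted p lay between 0.0025 and 1. The highest came from a test against a 1.5-fold change (limma treat), and no other alternative exceeded 0.0712. The change of Hes1 was 0.91 (SE 0.11) higher than that of Notch1 within arrays.

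Heyl and Hey1, which encode repressors of the HEY family, were dim. The 2 tested probe sets of Heyl read 43.1, 51.4 and 37.3 against 42.6, 46.7 and 45.6 (1419302_at) and 39.2, 27.4 and 45.6 against 48.1, 35.1 and 37.2 (1419303_at). The groups overlapped for both. Their log2 changes were 0.05 (95% CI −0.32 to 0.41, limma adjusted p = 0.846) and 0.12 (95% CI −0.34 to 0.58, limma adjusted p = 0.677), and the intervals leave room for a change as large as that of Hes1 in either direction. Another probe set of Heyl (1438886_at) had a mean of 15.5 and was not tested. The probe set of Hey1 (1415999_at) read 23.9, 20.9 and 11.2 in controls and 25.6, 19.6 and 16.7 with rosiglitazone, under the filter and overlapping.

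**Figure D3:**
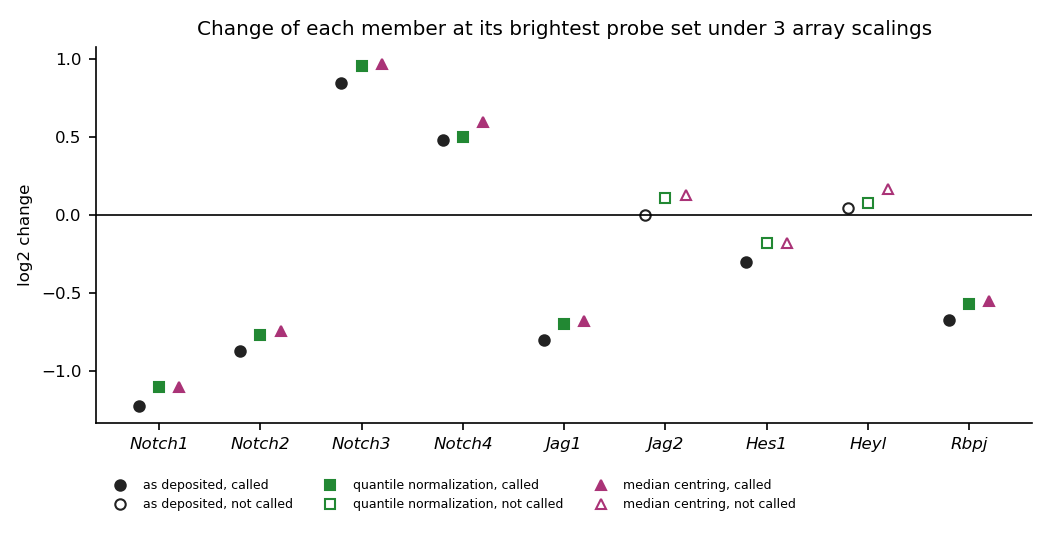
The log2 change of the 9 tested member genes at their brightest probe set (vertical axis) as deposited, after quantile normalization and after median centring, with filled symbols for calls at an adjusted p under 0.05. The calls of Notch1, Notch2, Notch3, Notch4, Jag1 and Rbpj held under all 3 scalings, that of Hes1 held as deposited only, and Jag2 and Heyl were not called under any of the 3.

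Other genes of the pathway were read from 9 role lists of 73 genes, each gene at its brightest probe set, and 53 were bright enough to test. Of these 53, 31 fell, or 58.5%, where 35.3% of all genes tested did, and 6 rose, or 11.3%, where 23.0% did. Their median log2 change was −0.23, against −0.05 over all genes. The lists were chosen with earlier results of these data known, so these shares are a description and not an independent test. On quantile-normalized arrays 29 fell and 8 rose, where 28.7% of all genes fell and 29.9% rose. On centred arrays 23 fell and 8 rose, where 24.9% and 34.5% did, and the median of the lists was −0.11. For 29 list genes 46 further probe sets were tested. Of these, 21 were called in the same direction as the brightest, and for none of the 29 genes were calls in opposite directions, the rest lacking a call on 1 or both sides.

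Among ligands other than the Jagged pair, 4 of 7 tested fell, and of the classical Delta ligands Dll4 alone was bright enough to test. Mfap5 and Mfap2, which encode microfibril proteins of the matrix that have been reported to bind Jagged1, fell by 1.85 and by 1.37 on the log2 scale. Ccn3, a matricellular protein gene whose product binds Notch1, fell by 1.21 on that scale, and Dlk1, which encodes a membrane protein that holds back fat cell differentiation, fell by 0.99 (by 0.38 with a floor of 64). The adjusted p (limma) of these 4 lay at or below 1.7e-05. Dll4, the classical ligand best known from vessels, had means of 88.2 ± 1.92 and 90.6 ± 4.43 (SD, n = 3 each) and did not pass the test (limma adjusted p = 0.789). Dll1 and Dll3 were under the filter. Egfl7, which encodes a secreted protein of vessels, had a log2 change of 0.26 at its brightest probe set, not called as deposited (limma adjusted p = 0.076) but called on quantile-normalized and on centred arrays (0.32 and 0.38). Its 2 further tested probe sets were called higher, at 0.54 and 0.90 (limma adjusted p = 0.0033 and 0.0015).

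In receptor processing, 4 of 8 tested genes fell and 2 rose. Furin, whose product makes the first cut of the receptor on its way to the surface, fell by 0.81 on the log2 scale, from 1404 ± 56.3 to 798 ± 14.1 (SD, n = 3 each). Adam10, whose product makes the ligand-dependent cut, fell by 0.45 in the same unit. Aph1b, a gamma-secretase subunit gene, fell by 0.41. With the mean of each gene's probe sets these falls were −0.24 and −0.88. Psen2, a catalytic gamma-secretase subunit gene, rose by 0.23 (0.35 on centred arrays), so the subunits of that complex did not move one way. The fall of Aph1a (−0.22) was lost on centred arrays, at −0.10, and with the mean of its probe sets, at −0.07 (limma adjusted p = 0.159). Its 2 further tested probe sets had changes of −0.06 and 0.06 and were not called.

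Of the 4 tested genes for enzymes that add sugars to the receptor, 3 fell and 1 rose. Lfng, whose Fringe product extends O-fucose on the receptor and so alters which ligands it answers, had the largest fall of all pathway genes tested here. It averaged 89.4 ± 16.6 in controls and 17.2 ± 5.12 with rosiglitazone (SD, n = 3 each), where 2 treated arrays lay under 16. Its log2 change on the floored scale was −2.29 (SE 0.20, limma adjusted p = 1.3e-07), a fall that 0.137% of tested probe sets matched. With a floor of 64, under which all treated values lie, it was −0.46 and not called (limma adjusted p = 0.0586). Poglut1, which adds O-glucose, fell by 0.47 on the log2 scale, and Rfng, another Fringe gene, rose by 0.22 (0.34 on centred arrays), a call lost without a filter on low values. Pofut1, which adds the O-fucose itself, had a log2 change of −0.19, called as deposited, but −0.09 and −0.07 and not called after quantile normalization and median centring.

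Of genes for ligand endocytosis, which pulls on the receptor to expose its cut site, 2 of 4 fell. Mib1 and Mib2, ubiquitin ligase genes, fell by 0.45 and by 0.32 on the log2 scale. With the mean of its probe sets the change of Mib1 was −0.11 and not called (limma adjusted p = 0.0853). That of Mib2 was −0.19 without rosiglitazone array 3 and −0.20 on centred arrays, both called, and its call was lost without a filter (limma adjusted p = 0.147), with a filter on the lowest 20% alone, with a floor of 64 and without a variance trend. Among genes of receptor turnover, 6 of 9 fell and 1 rose. The adaptor gene Numbl fell by 1.07 on the log2 scale, the Deltex family genes Dtx4, Dtx3 and Dtx3l fell by 0.84, by 0.44 and by 0.34, and another Deltex gene, Dtx2, rose by 0.29, a call lost without a filter and with a floor of 64. Dtx3l had a log2 change of −0.22 on centred arrays, still called. Numb, a close relative of Numbl, had a log2 change of −0.06 that did not pass the test (limma adjusted p = 0.382).

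Among nuclear partners of RBPJ, 7 of 9 fell and 1 rose (5 and 1 on centred arrays). Maml1, whose product bridges the receptor fragment to acetyltransferases, fell by 0.52 on the log2 scale at its brightest probe set, while its second tested one had a change of −0.03 (limma adjusted p = 0.834) and their mean gave −0.27. The acetyltransferase genes Ep300 and Kat2a each fell by 0.41. Rita1, whose product binds RBPJ and carries it out of the nucleus, rose by 0.69 (SE 0.08), from 125 ± 7.39 to 202 ± 5.26 (SD, n = 3 each), and by 0.63 at its second probe set. Rita1 had the largest rise among the 53 genes.

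Of further genes reported as Notch targets, 2 of 4 tested fell, and both have many other regulators. Ccnd1, the cyclin D1 gene, fell by 1.51 on the log2 scale, from 1037 ± 29.7 to 365 ± 9.30 (SD, n = 3 each), and its other probe sets gave −1.80 and −1.30. Myc fell by 0.44 on the log2 scale. The more specific targets were barely measurable, since Nrarp, Hes5 and Hes7 were under the filter and Hey2 had a log2 change of 0.19 that did not pass the test (limma adjusted p = 0.357). Among related repressors, Bhlhe40, which is not a classical Notch target, fell by 1.21 on the log2 scale, and Hes6 had a change of 0.13, not called as deposited but 0.23 and 0.25 and called after quantile normalization and median centring. Of the Groucho corepressors, which HES proteins recruit, Tle2 and Tle3 fell by 0.62 and by 0.24 on the log2 scale and Tle1 rose by 0.18 among 6 tested. Both falls were lost on centred arrays (limma adjusted p = 0.0629 and 0.0581), where Tle3 was at −0.11 and Tle1 at 0.30. The call of Tle3 was lost too with the mean of its probe sets (−0.14, limma adjusted p = 0.108). Tle2 is dim, with no measurable change at a floor of 64 (limma adjusted p = 1), and its call was also lost without control array 1 or 3 or rosiglitazone array 2 or 3 (log2 change −0.65, −0.53, −0.56 and −0.58).

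**Figure D4:**
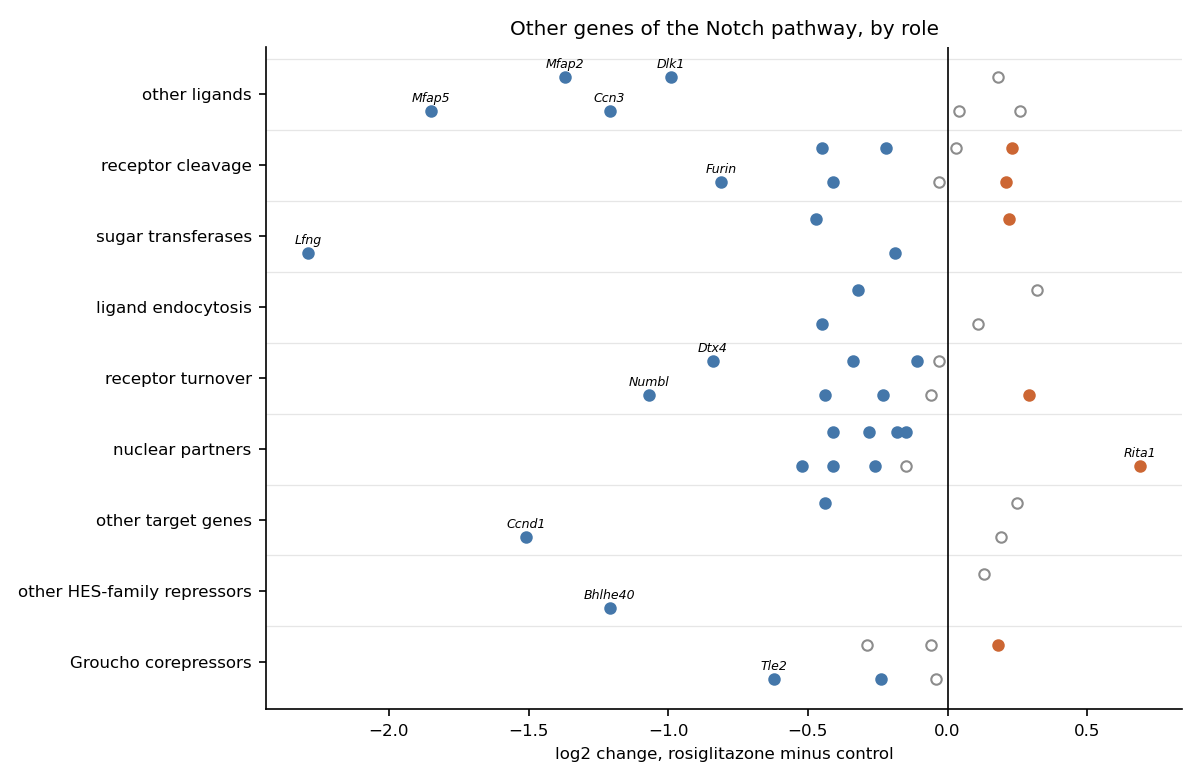
The log2 change of 53 further pathway genes at their brightest probe set, rosiglitazone minus control (horizontal axis), in 9 rows by role; filled points passed an adjusted p of 0.05 and genes that changed by at least 0.6 are named. Lfng lies lowest at −2.29, Mfap5 and Ccnd1 follow, and Rita1 lies highest at 0.69.

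Markers of other cells that express Notch genes were measured in the same arrays. The adipocyte genes Adipoq, Fabp4 and Lpl had control means of 12829, 17647 and 14814. Of 6 tested adipocyte markers Pparg and Lipe fell by 0.36 and by 0.23 on the log2 scale and Cidec rose by 0.28, and on centred arrays 4 rose and 2 fell. The summed level of these 6, to which the 3 brightest contribute most, was 58748 to 59966 in controls and 58518 to 59660 with rosiglitazone. Of 9 tested mural and smooth muscle markers 7 fell and 1, Cspg4, rose, and the summed level of the list's 10 markers went from 11133 to 11607 in controls to 6359 to 6402. The 7 that fell were Acta2, Tagln, Myh11, Cnn1, Pdgfrb, Abcc9 and Mcam. Rgs5, a defining pericyte gene, averaged 34.4 in controls and 34.8 with the drug. Kcnj8, under the filter and not tested, averaged 21.2 and 26.4, and no marker of this list was under 16 on all arrays. Of 6 tested preadipocyte and stromal markers 5 fell, and the summed level of 7 went from 7096 to 7180 down to 3020 to 3072, with Dpp4 under 16 on all arrays. Of 9 tested macrophage markers 8 fell, and the summed level of 12 went from 11113 to 12100 down to 3689 to 3991, with Cd163 and Cx3cr1 under 16 on all arrays. Of 13 endothelial markers, 4 were bright enough to test. Flt1 and Tek fell, from means of 220.5 to 74.5 and of 128 to 58.1, and Sox18 rose. The summed level, to which Flt1 and Tek contribute most, went from 549 to 567 down to 368 to 380. The defining genes Tie1 and Emcn were under 16 on all arrays, while Pecam1, Cdh5 and Kdr were under the filter. Of 3 tested genes of the lymphocyte list only Ptprc fell, from a mean of 303 to 135. Cd8a (109.6 and 109.8) and Cd79b (26.0 and 36.2) were not called. The summed level of 6 was 452 to 464 in controls and 293 to 309 with the drug, a fall that came from Ptprc. Cd3e and Cd4 were under 16 on all arrays. The 5 epithelial markers summed to 178 to 198 and to 176 to 189, with Cdh1 under 16 on all arrays. The falls of Notch1, Notch2, Jag1 and Rbpj thus coincided with falls of most tested stromal, macrophage, mural and smooth muscle markers. The rise of Notch3 was seen in the same arrays, where 7 of the 9 tested mural and smooth muscle markers fell and Cspg4 rose. The part of these cells in the changes of the Notch genes was not tested, and in RNA from a whole culture fewer cells of a type and less RNA per cell cannot be told apart.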

How the data were processed

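Expression was measured on 6 Affymetrix mouse 430 2.0 arrays, 1 per sample, from total RNA copied into biotin-labelled cRNA, per the labels. The authors deposited 1 linear intensity per probe set and array. Which software made these values, and how the arrays were scaled, was not stated in the sources used. Array medians lay between 44.65 and 46.81, and 28.0% to 28.9% of values per array were under 16. Arrays of a group correlated at 0.994 to 0.996 and of different groups at 0.984 to 0.985 (log2 scale). The number of arrays limits the precision.

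Probe sets were named through the platform's annotation, with gene symbols checked against a RefSeq gene table. The 64 control probe sets and the 40% of the others with the lowest mean were left out, values were floored at 16, and log2 was taken. The test was limma's moderated comparison of the 2 groups (version 3.58.1, R 4.3.3, trended eBayes, two-sided) without covariates, and p-values were adjusted over 27022 probe sets by Benjamini-Hochberg. The procedure was tested on simulated data in which few probe sets, all of them bright, were changed. That test therefore does not cover dim members or changes as widespread as those called here. A gene is represented by its brightest tested probe set, and other probe sets are given for the members. Of each role list, up to 4 called genes with the largest change were named, or 2 bright ones without a call; others named to identify small counts, or to contrast with a called gene, were chosen after their values were seen. Members and lists were chosen with earlier results of these data known. Of the role list genes, 14 were under the filter and 6 had no probe set with 1 symbol. Same-numbered arrays of the 2 groups did not deviate together (correlations of −0.04, −0.02 and 0.02), so the fit has no replicate block. The alternatives were other filters, floors, scalings, variance models, array weights, the block, other rules for probe sets, other thresholds and each array left out in turn.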

Additional observations from a re-analysis of the deposited data

How the results depend on the processing

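The calls of Notch1, Notch2, Notch3 and Jag1 held their direction and their side of the threshold under all 21 alternatives, with log2 changes of −1.28 to −1.10, −0.91 to −0.74, 0.81 to 0.97 and −0.82 to −0.68. For Notch2 and Notch3 the rules for probe sets could not change the value, since only 1 probe set of each passed the filter. The dim second probe set of Notch3, which did not rise, entered none of these values. The call of Rbpj (−0.69 to −0.55) held except in a test against a 1.5-fold change (limma treat). The call of Hes1 was lost with treat as well as with the other scalings given above. Values of Jag2 and Heyl, which were not called, changed sign when single arrays were left out (−0.03 to 0.06 and −0.07 to 0.17). The count of member probe sets called higher, 2 as reported, was 1 without a filter, with the lowest 20% or 60% of probe sets left out, with a floor of 64, at an adjusted p under 0.01 and with treat, and 1 to 2 with single arrays left out, Notch4 being the call lost. The count called lower, 9 as reported, was 5 with treat, and 5 where each gene was tested once, by its brightest probe set or the mean of its probe sets, since then only 9 genes are tested. Among the role lists treat called 9 genes lower and 0 higher (also 0 higher at an unadjusted p under 0.05, and 6 by the limma test without a minimum fold). Over all probe sets treat called 566 higher and 1501 lower, the brightest probe set per gene gave 3057 and 4635, the mean of probe sets 2912 and 4279, and median centring 8706 higher. With the replicate block 2 member probe sets were called higher and 9 lower, and no member's call changed. At a floor of 64 Notch4 and Heyl have no value, since all their arrays lie under it. Dim probe sets limit what can be said of Notch4, Hey1, Heyl and the second probe sets of Notch2, Notch3 and Jag2.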
